A study of Mus musculus with 10 samples.

Results

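Copies of the Ccl21 chemokine gene were followed on the arrays, through the probe for Ccl21b (NM_011335, probe CUST_301_PI426409190), the probe for Ccl21c (NM_023052, probe CUST_291_PI426409190) and the probe for Gm13304, a predicted Ccl21 copy (NM_001193666, probe CUST_268_PI426409190). They are 3 of 59709 probes, and each had 1 spot on every array. They were picked by their symbols with the differences between brown and white fat already known, so their values are a description and carry no test.

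The study measured long non-coding and coding RNA of wild-type Mus musculus on 10 one-colour Arraystar mouse arrays. Brown adipocytes in culture had 1 array each at days 0, 3, 5 and 7 of differentiation. White fat of mice injected with CL, brown fat of mice injected with saline and white fat of mice injected with saline had 2 arrays each. CL (CL316,243) is an agonist of the β3-adrenergic receptor. It was given into the peritoneum once a day for 7 days at 1 mg/kg, saline on the same schedule, and all mice with tissue arrays ate chow. The labels call the tissue arrays biological replicates and give no age, strain, fat depot or number of mice per sample, and they do not say whether the brown adipocytes were primary cells or a line.

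CCL21 is a chemokine that draws naive T cells and mature dendritic cells, which carry its receptor CCR7, into lymph nodes. In mice the protein comes from several near-identical genes. Ccl21a is known for its expression in lymph nodes and other lymphoid organs, and the other copies are known for expression in lymphatic vessels outside them. White fat is threaded by lymphatic vessels, and some white fat depots hold lymph nodes.

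The RefSeq gene table (assembly GRCm38.p6) lists 6 Ccl21 copies, all on chromosome 4, and 3 of them had a probe here. The deposited files give no probe sequence, so which copies each probe can bind could not be read from them. How alike the copies are can be seen in RefSeq's bases before their start sites, which the promoter table (GRCm38.p6) holds for 5 of the 6 copies and 2 of the 3 measured ones. The 250 bases before the start of Gm13304 (chr4:42114537-42114786, + strand) are shown as those of a measured copy. Capitals mark the bases of Gm13304 at which Ccl21a or Ccl21d differs.
Gm13304: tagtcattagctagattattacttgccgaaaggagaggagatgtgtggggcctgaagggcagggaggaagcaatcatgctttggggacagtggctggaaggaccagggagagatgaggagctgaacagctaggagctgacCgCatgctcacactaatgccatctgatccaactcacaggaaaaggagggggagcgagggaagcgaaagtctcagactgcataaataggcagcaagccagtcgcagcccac
Gm10591 held the same 250 bases as Gm13304. Ccl21d differed at 1 of 250 bases (C143T) and Ccl21a at 2 of 249 (C141T and C143T), with the base of Gm13304 first and positions counted from 1 at the 5′ end. The entry of Ccl21b was unlike these, with 166 differences from Gm13304 over 248 aligned bases, an identity of 33.1%. Its start is that of a gene of 83706 bases, against 1131 bases for Gm13304. That start may not be the one of the transcript measured here, so the likeness of Ccl21b to the other copies cannot be read from it.

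Both strands of the windows of Gm13304, Gm10591, Ccl21d and Ccl21a were searched for 5 motifs. The E-box CANNTG, which reads the same pattern on both strands, occurred at 1 place in each of these 4 copies and in 66.2% of 32851 RefSeq promoter windows. The exact TATA box string TATAAA was in none of the 4 copies and in 12.4% of all windows, and the GC box GGGCGG in none and in 32.7%. Close variants of a motif were not counted, such as the cataaata near the 3′ end of the window of Gm13304. A zero count here thus does not mean that a promoter lacks a TATA-like stretch. The interferon-stimulated response element was in none of the 4 and in 2.98% of all windows, and the NF-kB consensus in none and in 7.25%. These are letter matches and say nothing of which factors bind.

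All 30 values of the 3 probes were marked well above background, 0 were saturated and 0 carried an outlier flag. The scanner software's own error was 10% to 10.5% of the signal. For scale, 15 other probes with 20 spots each had a within-array SD of 0.0813 on the log2 scale (median; range 0.0271 to 0.402). Across the 10 arrays 55.2% to 78.3% of probes were well above background, as were 10.9% to 36.4% of the 1200 negative control spots. The tissue arrays were scanned together and the cell arrays in another scan, so a difference between cells and fat and one between scans cannot be told apart. Unless a signal is named, a value below is the log2 of the processed signal after subtracting its array's 75th percentile, and the number of arrays limits their precision.

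Ccl21b stood at -0.60, -0.74, -0.85 and -0.50 in cells at days 0, 3, 5 and 7. In fat it stood at 6.16 and 7.10 after CL, at 4.26 and 5.58 in brown fat, and at 7.72 and 7.49 in saline white fat. Every fat array thus lay far above every cell array, brown fat lay lowest of the fats, and saline white fat lay highest.

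Ccl21c stood at 1.68, 1.32, 1.49 and 1.69 on the same days. In fat it stood at 6.16 and 7.29 after CL, at 4.62 and 5.84 in brown fat, and at 7.82 and 7.48 in saline white fat. The order of the groups was that of Ccl21b.

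Gm13304 stood at -0.22, -0.71, -1.33 and -0.39 on the same days. In fat it stood at 6.25 and 7.30 after CL, at 4.48 and 5.63 in brown fat, and at 7.83 and 7.51 in saline white fat. For each of the 3 probes the order of the means, low to high, was cells, brown fat, CL-treated white fat and saline white fat.

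**Figure D1:**
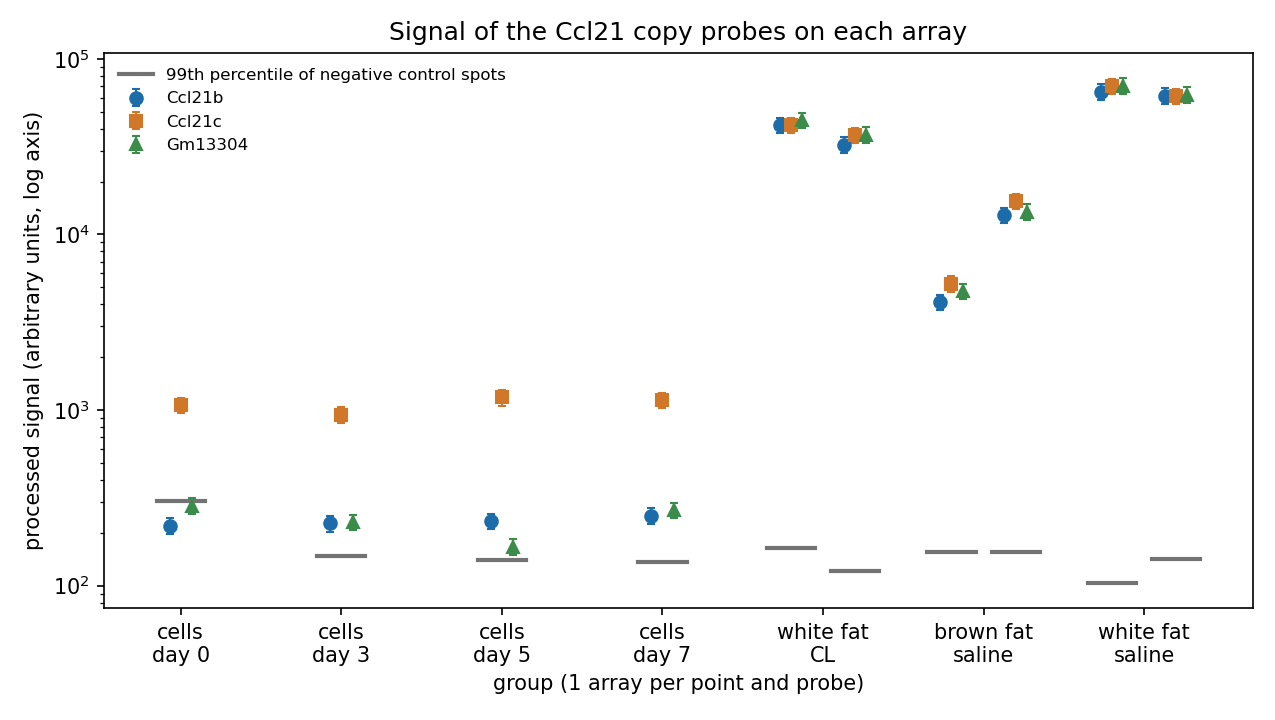
Processed signal (log axis) of the 3 probes on each array, with the scanner software's error as bars, and the 99th percentile of the array's negative control spots as a grey bar. Ccl21b and Gm13304 lie at 166 to 286 in cells and Ccl21c at 940 to 1179, while all fat arrays lie at 4100 or above.

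Brown fat was set against white fat of the same treatment, saline, and all 3 probes were lower in brown fat. Ccl21b averaged 4.92 ± 0.93 in brown fat and 7.60 ± 0.16 in saline white fat (SD, n = 2 each), a log2 difference of -2.68, or 6.43-fold lower. Before scaling by the 75th percentile, and so not in the ratio of that fold, the geometric mean of the processed signal was 7281 units in brown fat and 63300 units in saline white fat. Ccl21c averaged 5.23 ± 0.86 in brown fat and 7.65 ± 0.24 in saline white fat, a difference of -2.42, or 5.36-fold lower. Gm13304 averaged 5.06 ± 0.82 in brown fat and 7.67 ± 0.23 in saline white fat, a difference of -2.61, or 6.12-fold lower.

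The 2 groups did not overlap for any of the 3 probes, where 40.5% of 43451 probes had both brown fat arrays below both saline white fat arrays. In the limma fit over all probes tested, 10.4% of 43542 probes were called between these groups at an adjusted p under 0.05, 2408 higher and 2118 lower in brown fat. The median difference was -2.61 for the 3 probes and -0.12 over all probes tested, and 2.02% to 2.82% of those probes lay lower than a Ccl21 copy. Relative to the all-probe median the differences were -2.56, -2.30 and -2.49 for Ccl21b, Ccl21c and Gm13304. In these bulk samples, fewer cells of a type and less RNA per cell cannot be told apart.

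For the 3 probes the brown fat arrays differed from each other by more than the saline white fat arrays did. Brown fat replicate 1 lay 2.48-fold below replicate 2 for Ccl21b, 2.32-fold for Ccl21c and 2.22-fold for Gm13304. Only 4.58% to 6.23% of tested probes were as far apart between the brown fat arrays, whose median gap was 0.29 on the log2 scale. In saline white fat the gaps of the 3 probes were 1.17-fold to 1.26-fold, where the median gap of all tested probes was 0.32 on the log2 scale. Without brown fat replicate 1 the differences from saline white fat were -2.03, -1.81 and -2.04 for Ccl21b, Ccl21c and Gm13304, and without brown fat replicate 2 they were -3.34, -3.03 and -3.19.

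The effect of the β3-adrenergic agonist was read from white fat of CL mice set against white fat of saline mice, and all 3 probes had lower means after CL. Ccl21b averaged 6.63 ± 0.67 after CL and 7.60 ± 0.16 after saline (SD, n = 2 each), a log2 difference of -0.97, or 1.96-fold lower. For Ccl21c the mean was 6.72 ± 0.80 after CL and 7.65 ± 0.24 after saline, a difference of -0.93. For Gm13304 it was 6.77 ± 0.74 after CL and 7.67 ± 0.23 after saline, a difference of -0.90. This comparison and that of brown fat share the saline white fat arrays.

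Both CL arrays lay below both saline arrays for all 3 probes, where 15.4% of 43480 probes did so. Between single arrays the gap ran from -1.66 to -0.19 over the 3 probes, so the nearest CL and saline arrays were close. The limma fit called 0 probes in this comparison, a share of 0%, with 2378 probes at an unadjusted p under 0.05. The median difference was -0.93 for the 3 probes and -0.08 over all probes tested.

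The size of the CL difference rested on CL replicate 1. Without it the log2 differences were -0.50 for Ccl21b, -0.36 for Ccl21c and -0.37 for Gm13304, and without CL replicate 2 they were -1.44, -1.50 and -1.42. Between the CL arrays these probes lay 1.92-fold to 2.19-fold apart, and 27.4% to 38.5% of tested probes were as far apart. The median gap of all tested probes there was 0.78 on the log2 scale, against 0.32 between the saline white fat arrays. A wide gap between the CL arrays was thus not particular to these probes. The order of the CL arrays depends on the scaling, because the 75th percentile was 9.19 on replicate 1 and 7.88 on replicate 2. Before scaling, the processed signal of Ccl21b was 41871 on CL replicate 1 and 32396 on replicate 2, against 65013 and 61631 on the saline arrays. Unscaled, too, each CL array was thus below each saline array. The CL arrays lay in another column of the slide than the saline arrays, and an effect of CL cannot be told apart from one of the position on the slide.

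White fat of CL mice was also set beside brown fat of saline mice, a pair that differs in tissue as well as in treatment. Ccl21b was 3.28-fold higher in CL-treated white fat (6.63 ± 0.67 against 4.92 ± 0.93 in brown fat, log2 difference 1.71). Ccl21c was 2.81-fold higher (6.72 ± 0.80 against 5.23 ± 0.86, difference 1.49) and Gm13304 3.29-fold higher (6.77 ± 0.74 against 5.06 ± 0.82, difference 1.72).

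The groups did not overlap for any of the 3, where 22.9% of 43499 probes had both CL arrays above both brown fat arrays. The limma fit called 3.49% of probes here. The nearest pair of arrays, CL replicate 1 and brown fat replicate 2, lay 0.32 to 0.62 apart. Without brown fat replicate 1 the differences were 1.06, 0.89 and 1.14 for Ccl21b, Ccl21c and Gm13304, and without CL replicate 2 they were 1.24, 0.93 and 1.19. They were 2.37, 2.10 and 2.29 without brown fat replicate 2 and 2.19, 2.06 and 2.24 without CL replicate 1.

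**Figure D2:**
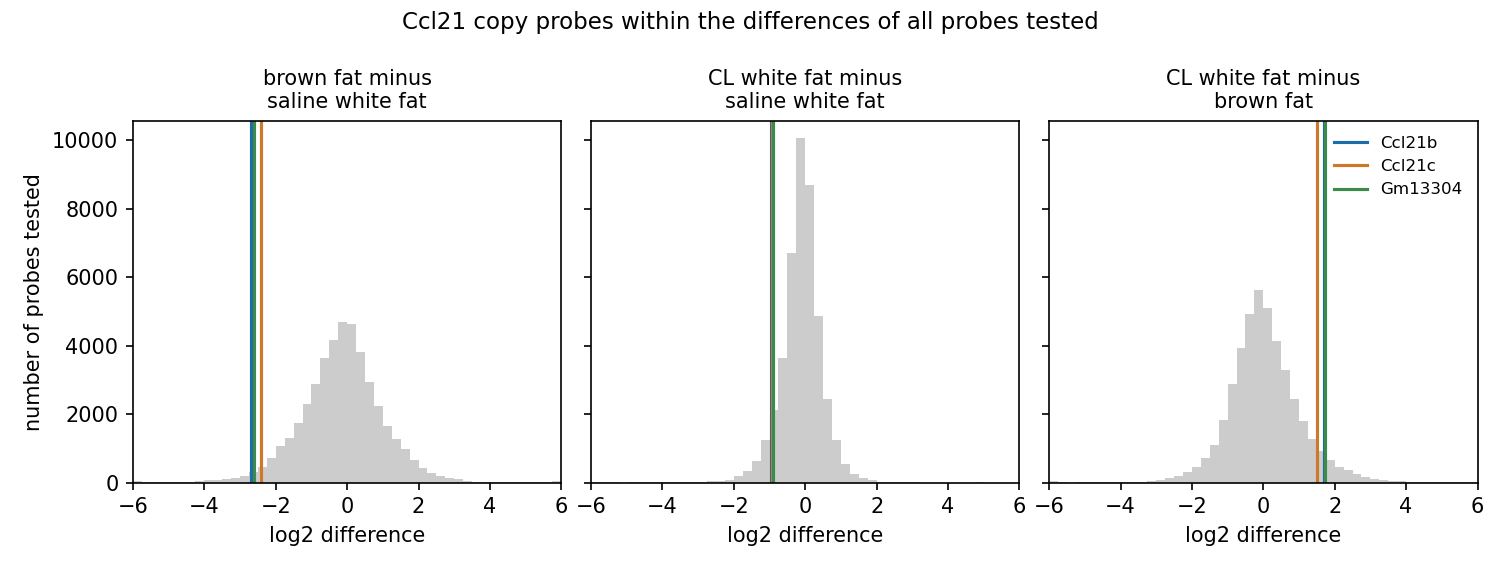
Histograms of the log2 difference of group means over all 43542 probes tested (bins of 0.25, values past 6 in the end bins), with 1 line for each Ccl21 copy. The 3 lines lie at -2.68 to -2.42 for brown minus saline white fat, at -0.97 to -0.90 for CL minus saline white fat and at 1.49 to 1.72 for CL white fat minus brown fat.

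**Figure D3:**
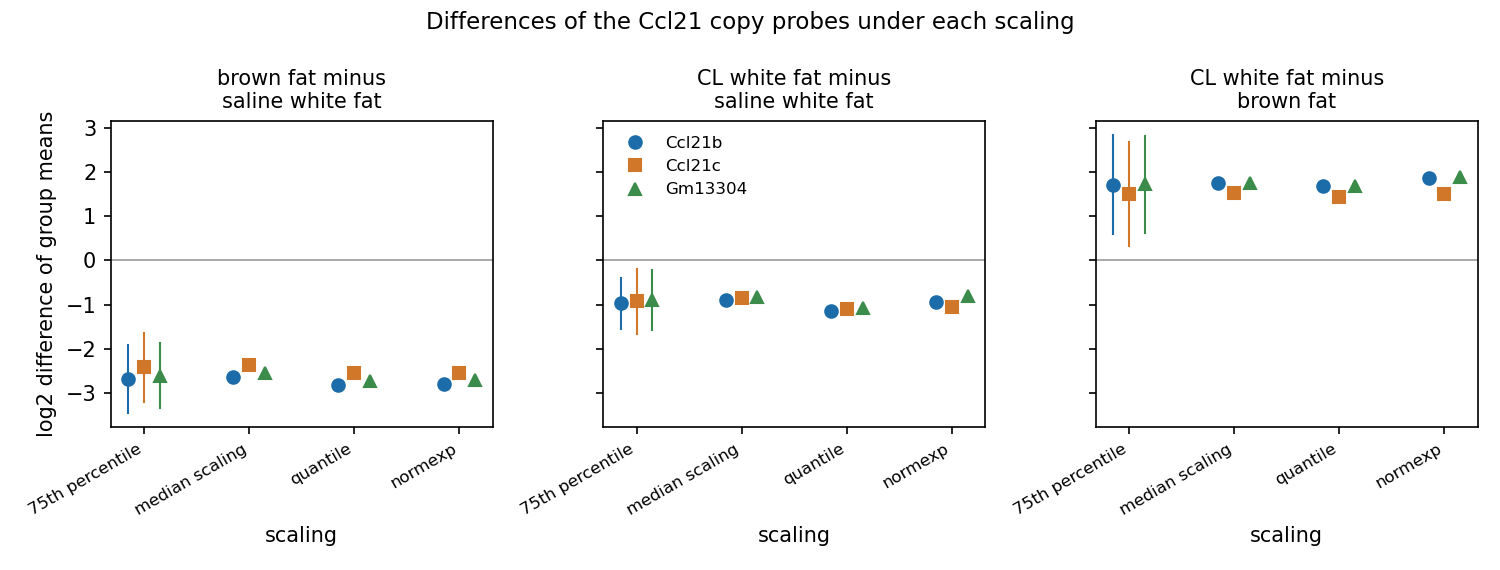
Log2 differences of the 3 probes under 4 scalings, with a vertical line at the first from the lowest to the highest difference between single arrays. The direction was the same under each, with brown minus saline white fat between -2.82 and -2.37.

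Across differentiation Ccl21b and Ccl21c stayed close to their day 0 values, with 1 array per day and so no replicate check. Ccl21b differed from day 0 by log2 -0.13 at day 3, -0.24 at day 5 and 0.11 at day 7, and its processed signal ran from 219 to 250 units. Ccl21c differed by -0.36, -0.19 and 0.01 on those days, between 940 and 1179 units. Gm13304 differed by -0.49, -1.11 and -0.17, and day 5 was its lowest point, at 166 units with a scanner error of 17.4, against 286 units with an error of 28.9 at day 0. This log2 difference of -1.11 passed 2-fold, as did -1.02 with quantile normalization, but -0.91 with normexp and -0.81 with median scaling did not, and the other day differences of the 3 probes did not pass it with the 75th percentile. By that scaling 18.9% of 48606 probes were at least 2-fold lower at day 5, 10.5% at day 3 and 12.1% at day 7. The median difference over all probes was -0.16, -0.27 and -0.13 at days 3, 5 and 7.

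In cells the signals of Ccl21b and Gm13304 were close to the upper end of the negative control spots. At day 0, 42 of 1200 negative control spots were at or above Ccl21b, 24 at or above Gm13304 and 1 at or above Ccl21c. On days 3, 5 and 7 the counts were 6, 1 and 2 for Ccl21b, 6, 1 and 0 for Gm13304, and 0 each day for Ccl21c. On each of the 6 fat arrays 0 negative control spots reached any of the 3 probes.

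Cells at day 7 were set against fat to place the culture beside the tissue. Ccl21b was lower in the cells by a log2 difference of -5.42 from brown fat and of -8.10 from saline white fat. Gm13304 was close to it, at -5.45 and -8.06. Ccl21c was less far below, at -3.54 from brown fat (11.7-fold) and -5.96 from saline white fat (62.4-fold). All 4 cell arrays were below all 6 fat arrays for each of the 3 probes, where 7.08% of 49979 probes showed that order. Over all probes the median difference of day 7 from brown fat was 0.17. Cells and tissues lay in different scans, and the part of the scan in these gaps cannot be told apart.

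Across the 6 fat arrays the 3 probes moved together, with r = 0.997 to 0.999 between pairs of them, a description with no test over arrays that all 3 share. On a single fat array, log2 differences between pairs of probes ran from -0.36 to 0.20. Which copies each probe binds is not known, so the 3 probes may measure the same transcripts. Their agreement in fat therefore cannot be read as that of 3 separate genes. They parted in how far the cells lay below fat. The gap to saline white fat at day 7 was -5.96 for Ccl21c, while it was -8.10 for Ccl21b and -8.06 for Gm13304, and the gap of Ccl21c was the smallest of the 3 on each of the 4 days.

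Most of the Ccl21 genes stand in a duplicated stretch of chromosome 4. From Ccl21d to Ccl21a the RefSeq table lists 40 genes, 16 of them protein-coding. They hold 5 of the 6 Ccl21 copies, and Ccl21c is listed outside this order. Of the other genes, 3 had a probe. These neighbours were taken for their place and not for their values. Gm13305 stood at 6.16 and 6.20 in brown fat, against 6.70 and 7.19 in saline white fat (log2 difference -0.77, SE 0.50, limma adjusted p = 0.342). It was at 6.90, 6.06, 5.97 and 6.40 in cells at days 0, 3, 5 and 7, within the range of the fat arrays or just below it.

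Fam205a2 stood at -1.05 and -0.37 in brown fat, against 0.29 and 1.11 in saline white fat (log2 difference -1.41, SE 0.54, limma adjusted p = 0.129). It was at -3.51, -3.77, -6.33 and -5.30 in cells at days 0, 3, 5 and 7, where 2 of the 4 arrays marked it well above background. Gm21953 stood at 2.81 and 2.20 in brown fat, against 1.85 and 2.15 in saline white fat (log2 difference 0.51, SE 0.43, limma adjusted p = 0.474). It was at 2.23, 2.85, 3.00 and 3.36 in cells at days 0, 3, 5 and 7, and from day 3 on above every fat array. None of the 3 neighbours passed the threshold in any tissue comparison, with adjusted p from 0.129 to 1. Whether their differences and those of the Ccl21 copies differ was not tested.

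Ccl28, a chemokine of mucosal surfaces that acts through other receptors than CCR7, was the only other chemokine with a symbol. It stood at 0.00 and 0.56 in brown fat, against 0.71 and -0.05 in saline white fat (log2 difference -0.05, SE 0.41, limma adjusted p = 0.95). After CL it stood at -0.37 and -0.35, against the same saline arrays (difference -0.69, SE 0.41, limma adjusted p = 0.956). Its groups overlapped between brown and saline white fat and not between CL and saline.

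**Figure D4:**
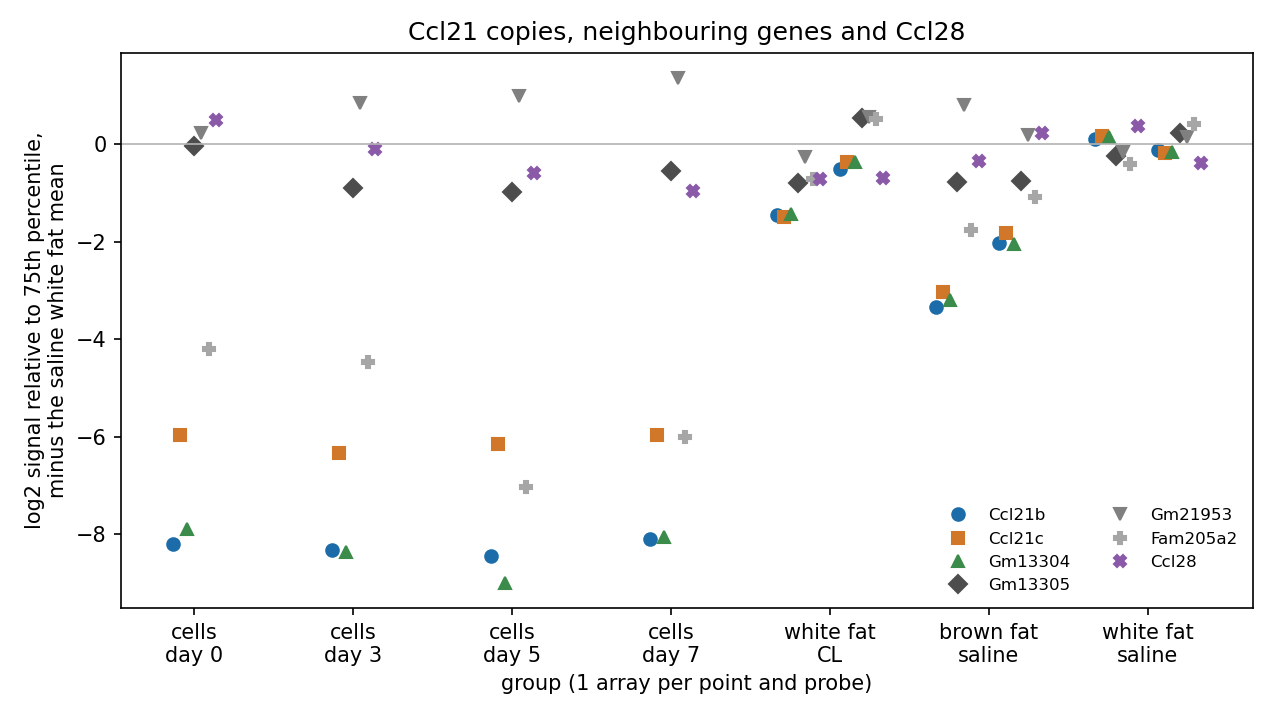
Log2 values of the 3 Ccl21 copies, the 3 measured neighbours and Ccl28 on each array, each minus its own mean in saline white fat. In cells Ccl21b and Gm13304 lie at -9.01 to -7.89 and Ccl21c at -6.33 to -5.96, while Gm13305 lies at -0.98 to -0.04.

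A list of 21 genes covered the CCR7 axis, other chemokines and receptors, and lymphoid tissue. It held Ccr7, its other ligand Ccl19 and the scavenging receptor Ackr4. Of these 21 genes, 0 were measured under their names. Of 27 markers of lymphocytes, dendritic cells and macrophages, lymphatic endothelium and fibroblastic reticular cells, 0 were. The share of lymph node, lymphatic vessel or immune cell RNA in each fat sample therefore could not be given beside the Ccl21 values, and its part in them was not tested. Of 6 brown fat markers 1 was measured, glycerol kinase (Gk), which was higher in brown fat (0.59 and 0.80, against -1.79 and -1.67 in saline white fat; limma adjusted p = 0.0117), and of 4 white fat markers 0.

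The probes most like the Ccl21 copies were found by the correlation of their values over the 10 arrays with the mean of the 3 centred profiles. The closest of any kind were ASMM9PARTA035483, ASMM9PARTA013989 and ASMM9PARTA015608, each at r = 0.995 and well above background on 6 of 6 fat arrays and on 0, 2 and 2 of 4 cell arrays. They carry a design number and no gene name. ASMM9PARTA035483 differed by log2 -2.74 between brown and saline white fat and by -0.74 between CL and saline. For ASMM9PARTA013989 and ASMM9PARTA015608 the differences were -2.36 and -2.25 between brown and saline white fat, and -1.13 and -0.98 between CL and saline.

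The closest probes with a symbol were Gm20877, Gm20815, Gm20747, Gm20806 and Gm20852, at r = 0.987 to 0.989, all predicted genes on the Y chromosome in the RefSeq table. Of the 112 symbols on the array 23 lie on the Y chromosome. For the 5 probes the differences of brown from saline white fat were -1.62 to -1.18, where those of the Ccl21 copies were -2.68 to -2.42. Between CL and saline white fat the differences of the 5 probes were -0.81 to -0.79, where those of the Ccl21 copies were -0.97 to -0.90. For the 5 probes the differences of day 7 cells from brown fat were -5.90 to -3.34. The r over 10 arrays takes in this gap between cells and fat, which cannot be told apart from one between scans. In all, 1850 of 43410 probes had an r of 0.9 or more. Over the 6 fat arrays alone, r was 0.95 for the 3 unnamed probes and 0.84 to 0.91 for the 5 with a symbol.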

How the data were processed

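RNA was measured on 10 one-colour Agilent arrays, 1 per sample, from total RNA labelled with Cy3, per the labels' protocols. Each deposited file holds the intensity of every spot as written by the scanner software (Feature Extraction 11.0.1.1), per the file headers: a background-subtracted processed signal, its error, and the median brightness of spot and background, with flags of 0 or 1. The submitters' processing notes name version 9.1. The deposited table of log2 values lists 0 of the 3 probes and was not used further; how the authors normalized it is not given in the sources used here.

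Control spots, the 1200 spots of 20 negative control probes and outlier spots were left out, repeat spots were averaged as log2 values, and the 75th percentile of each array was subtracted. The test took probes that both arrays of some tissue group marked well above background, fitted in R 4.3.3 with limma 3.58.1 (lmFit, eBayes, 6 tissue arrays, 3 group means, two-sided, Benjamini-Hochberg over 43542 probes). The fit has 3 residual and 4.46 prior degrees of freedom. It was also run on simulated normal data with planted changes larger than the tissue differences of the Ccl21 probes. That run cannot show how well differences of their size are found. Alternatives were normexp (offset 50, on median brightness, as the files hold no mean), quantile and median scaling, other filters, a replicate block, fewer groups and leaving out arrays.

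Members, gene lists and tests were chosen with earlier results of these data known. Named were the 3 probes, measured genes of the fixed lists, and the 5 symbols and 3 probes most alike; the chromosomal neighbours and Ccl28 were added after the files were seen. Symbols came from RefSeq accessions without versions (GRCm38.p6, names only, as the design is on mm9): 116 of 123 matched 1 symbol. Labels do not say how replicates were taken, so p-values measure the spread between these arrays.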

Additional observations from a re-analysis of the deposited data

How the results depend on the processing

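Under normexp, quantile and median scaling all 27 tissue differences of the Ccl21 probes kept their direction, as did 21 of 27 day differences. With groups that do not overlap, leaving out 1 array cannot turn a sign, so it shows only the size, which was -3.34 to -2.03 (Ccl21b), -3.03 to -1.81 (Ccl21c) and -3.19 to -2.04 (Gm13304) on the log2 scale for brown minus saline white fat, and -1.44 to -0.50, -1.50 to -0.36 and -1.42 to -0.37 for CL minus saline. For CL white fat minus brown fat the ranges were 1.06 to 2.37, 0.89 to 2.10 and 1.14 to 2.29. Normexp put the median of all probes for brown minus saline white fat at 0.10, against -0.12, and the Ccl21 probes at -2.90, -2.66 and -2.80 relative to it. For CL white fat minus brown fat it put that median at -0.17, against -0.03, and the Ccl21 probes at 2.03, 1.67 and 2.06 relative to it. The counts of limma calls over all probes were less steady than the Ccl21 values. Between brown and saline white fat the main count was 4526; it was 1385 with no filter and 14226 in the 2 groups alone, and it ran from 321 to 14226 when 1 array was left out (321 and 637 without brown fat replicates 1 and 2, 519 and 882 without saline white fat replicates 1 and 2, 14226 without either CL array). For CL against saline it was 0, 32 with normexp, 2 with probes well above background on all 6 tissue arrays, and 0 to 110 with 1 array left out (4 and 110 without saline white fat replicates 1 and 2). For CL white fat against brown fat it was 1521, 544 with no filter, 995 in the 2 groups alone, and 203 to 11522 with 1 array left out (203 and 292 without brown fat replicates 1 and 2, 995 without either saline white fat array, 2359 and 11522 without CL replicates 1 and 2). A group left with 1 array adds nothing to the estimate of spread. Comparing the other 2 groups then repeats the fit of those 2 groups alone, which is why these counts are equal. The causes of the other changes were not tested. The replicate block gave 6212, 1 and 2189 calls. The labels do not say that a replicate number marks shared animals or days, so the numbers were not taken as pairs. Replicate 1 minus 2 correlated at r = -0.0238 between brown and saline white fat, -0.0823 between brown and CL-treated white fat and 0.504 between CL-treated and saline white fat. Signal over background limits Ccl21b and Gm13304 in cells only.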
